A study of Mus musculus with 7 samples.

Results

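The genes of sphingolipid metabolism were examined in RNA from whole pancreatic islets of mice with a deletion of Abca12 in beta cells and of control mice. The set was defined by name as the enzymes, inhibitors and carriers that make, convert and break down ceramide, sphingomyelin, glucosylceramide and sphingosine phosphate. It held 33 of the 34245 genes listed, and 32 of the 33 had enough reads to be tested. The long-chain base subunit gene Sptlc3 had 0 reads in each library, so that a level below a floor of 3 reads, 0.0696 to 0.125 reads per 1000000 library reads (RPM) across the libraries, could not be seen (counting error only).

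The KO group was 5 mice carrying the tm1d form of Abca12, made by excising a floxed allele with Rip1-Cre. The control group was 2 mice, both also with Rip1-Cre. Control 1 had wild-type Abca12, and Control 2 was heterozygous for the floxed allele, so the groups share the Cre transgene and the controls differ in genotype. With Rip1-Cre present, the floxed copy in Control 2 may also be excised in beta cells, which was not tested. All mice were C57BL/6J and 8 weeks old. Rip1-Cre is driven by an insulin promoter and deletes in beta cells, while whole islets also hold other hormone cells, vessels and stroma that keep the Abca12 gene.

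Ceramide is built in the endoplasmic reticulum from serine and a fatty acyl chain. Serine palmitoyltransferase takes the first step under restraint by ORMDL proteins, a reductase and the ceramide synthases follow, and a desaturase completes the molecule. Ceramide is then carried to the Golgi for sphingomyelin, glycosylated to glucosylceramide and lactosylceramide, or broken down to sphingosine, whose phosphate is a signalling lipid. In keratinocytes ABCA12 loads glucosylceramide into secretory granules, and in beta cells ceramide is known for its link to lipotoxic stress.

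Reads in listed genes came to 13335960 to 24590888 per library. Abca12 (chr1:71242276-71414910, minus strand, GRCm38) had 0 reads in all 7 libraries. Its transcript was thus not detected in control islets either, and it checks no label. Insulin transcripts marked every library as islet, with Ins2 at 29617 to 44329 RPM in KO and 34582 and 39706 in control islets. The headers of KO 1 and KO 2 end in f and those libraries had 385 and 368 RPM of Xist, against 0.362 to 0.533 in the other 5, so both females were KO mice. The summed level of 13 acinar markers was 1652 to 10165 RPM in KO (10138 in KO 2 and 10165 in KO 3) and 805 and 393 RPM in Control 1 and Control 2, with 13 of 13 higher on average in KO. Endothelial markers summed to 87.8 to 130 RPM in KO and to 144 and 169 RPM in Control 1 and Control 2, with 6 of 6 lower on average in KO. Stellate and fibroblast markers summed to 20.5 to 31.8 RPM in KO and to 27.7 and 103 RPM in Control 1 and Control 2, with 6 of 6 lower on average. Markers of delta and PP cells summed to 1677 to 2601 RPM in KO and to 1552 and 1266 RPM in Control 1 and Control 2, so every KO library was above both controls, with 4 of 4 higher on average. Alpha cell markers summed to 2446 to 7105 RPM in KO and to 3032 and 3180 RPM in Control 1 and Control 2, with 4 of 4 higher on average and the groups overlapping. None of these lists had a marker at 0 in all libraries, and 0 of their markers passed the test across all genes. In bulk islets, fewer cells of a type and less RNA per cell cannot be told apart.

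Most steps of the pathway were well represented in islets. Per kilobase of exon, the dihydroceramide desaturase gene Degs1 was the most abundant member, at 49.7 RPM per kb in KO and 49.6 RPM per kb in control islets. It was followed by Ormdl3, an inhibitor of serine palmitoyltransferase, at 33.4 RPM per kb in KO and 31.9 in control islets. The acid ceramidase gene Asah1 stood at 28.5 and 28.8 RPM per kb in KO and control islets, the acid sphingomyelinase gene Smpd1 at 20.8 and 21.2, and the ceramide kinase gene Cerk at 18.4 and 19.04. At the low end, Cers1, a ceramide synthase gene, had 0.127 RPM per kb in KO and 0.132 in control islets, the ceramidase gene Acer3 had 0.372 and 0.385, and Sphk1, a sphingosine kinase gene, had 0.382 and 0.346.

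**Figure D1:**
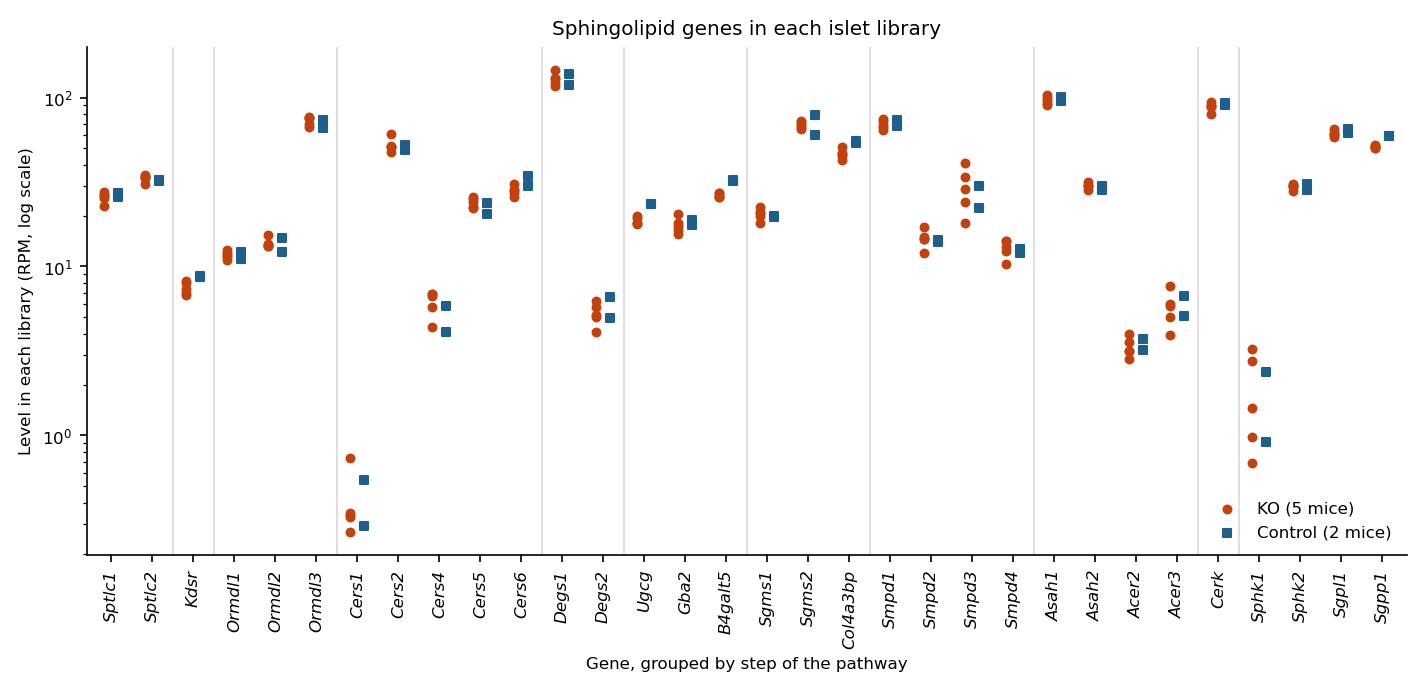
Level of the 32 detected sphingolipid genes in each library (RPM, log axis, not divided by gene length), in order of pathway step, with KO mice as circles left of the control mice as squares. Levels run from below 1 RPM for Cers1 to between 118 and 145 RPM for Degs1 in KO islets, and the points of the 2 groups overlap for 27 of the 32 genes.

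The comparison of KO with control islets asks whether the deletion of Abca12 in beta cells went with altered transcripts of ceramide and glucosylceramide metabolism. By limma on log2(RPM + 1) over 16212 genes, 0 of the 32 tested members passed at an adjusted p of 0.05, while 10 genes (0.0617% of all tested) passed. At an unadjusted p under 0.05, 4 members were lower in KO and 0 were higher, 12.5% of the members against 10.8% of all genes (6.16% lower in KO and 4.64% higher). All 5 KO libraries lay below both controls for 5 members (Ugcg, B4galt5, Col4a3bp, Sgpp1 and Kdsr) and above both for 0. That is 15.6% of the members, against 15.2% of all genes without overlap in either direction (8.41% lower in KO and 6.75% higher).

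The members were otherwise close to level between the groups. Their median log2 fold change was -0.01, equal to the -0.01 of all genes tested, with 15 members higher and 17 lower. The median size of the log2 difference was 0.05 among the members and 0.10 among all genes tested, and 27 of 32 members (84.4%, against 77.4% of all genes) differed by less than 0.2 on the log2 scale. The 95% interval of the log2 fold change lay between -0.5 and 0.5 for 29 of 32 members (90.6%, against 73.0% of all genes). It reached beyond these limits for Cers4, Smpd3 and Sphk1. The log2 values are on the log2(RPM + 1) scale, which understates differences of low genes such as Cers1. Members also varied less among KO libraries, with a median coefficient of variation of 6.68% against 11.3% for all genes tested. The part of this in the smaller differences was not tested.

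**Figure D2:**
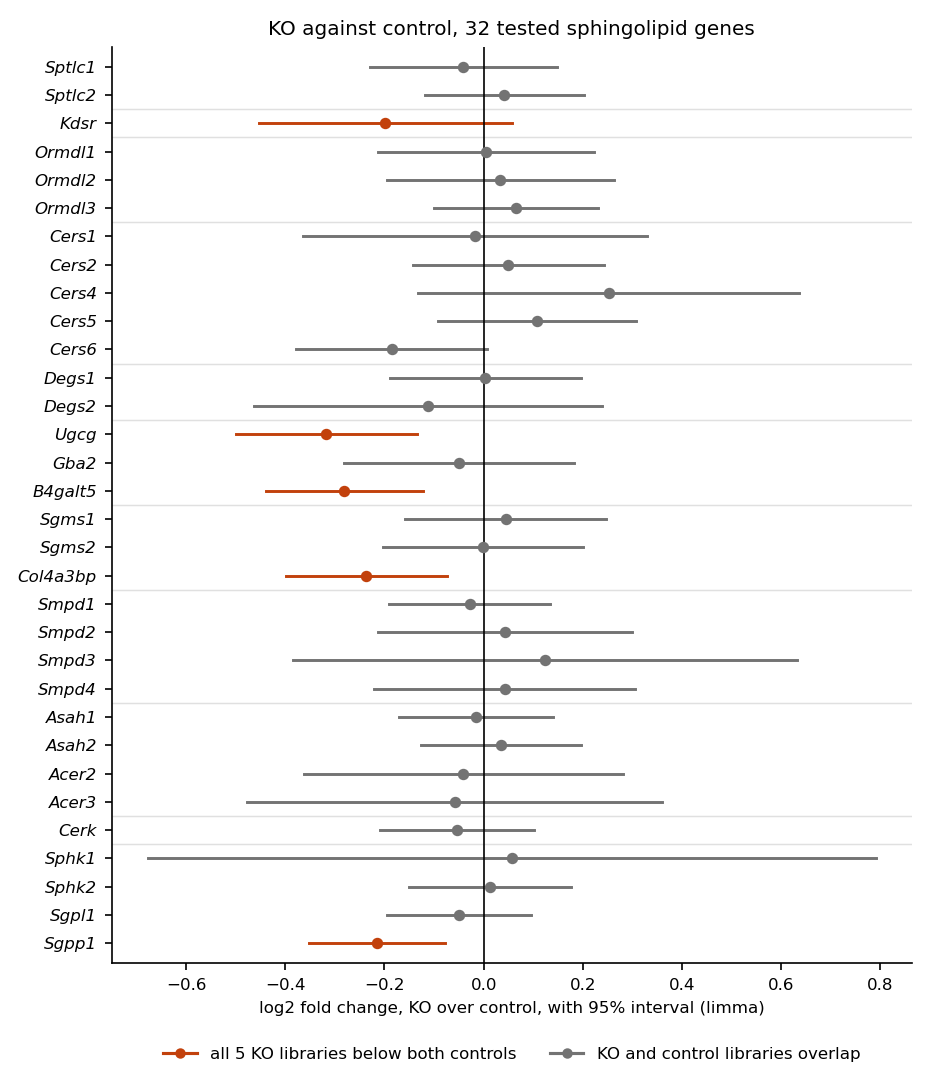
Log2 fold change of KO over control with its 95% interval from limma for each of the 32 tested members, in order of pathway step. The 5 members whose KO libraries all lay below both controls, from Ugcg at -0.32 to Kdsr at -0.20, are in orange, and the others in grey.

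The start regions of 4 members that were lower in every KO library at an unadjusted p under 0.05 are printed to show what they share. They are RefSeq windows of 300 bases on GRCm38.p6, from 250 bases before to 50 after the annotated start, read along the gene's strand. Capitals mark each GC box (GGGCGG) and each CCAAT box (CCAAT), searched on both strands, and adjoining capitals in B4galt5 hold overlapping GC boxes. The RefSeq start of Ugcg lies 293 bases from the start in the deposited table.
Ugcg, chr4:59189300-59189599, plus strand: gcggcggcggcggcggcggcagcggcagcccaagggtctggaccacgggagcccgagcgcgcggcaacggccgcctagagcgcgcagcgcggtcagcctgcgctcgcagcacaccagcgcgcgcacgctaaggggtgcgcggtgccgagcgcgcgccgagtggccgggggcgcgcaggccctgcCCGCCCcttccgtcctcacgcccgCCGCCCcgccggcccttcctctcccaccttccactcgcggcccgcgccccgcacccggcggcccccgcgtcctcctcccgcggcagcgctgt
B4galt5, chr2:167349129-167349428, minus strand: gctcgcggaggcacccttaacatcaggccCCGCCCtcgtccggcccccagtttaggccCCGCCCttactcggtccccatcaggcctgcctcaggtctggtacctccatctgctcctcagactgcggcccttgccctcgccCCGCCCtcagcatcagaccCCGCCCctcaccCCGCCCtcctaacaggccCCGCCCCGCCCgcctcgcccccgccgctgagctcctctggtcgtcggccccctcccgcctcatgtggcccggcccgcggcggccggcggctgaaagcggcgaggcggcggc
Col4a3bp, chr13:96542485-96542784, plus strand: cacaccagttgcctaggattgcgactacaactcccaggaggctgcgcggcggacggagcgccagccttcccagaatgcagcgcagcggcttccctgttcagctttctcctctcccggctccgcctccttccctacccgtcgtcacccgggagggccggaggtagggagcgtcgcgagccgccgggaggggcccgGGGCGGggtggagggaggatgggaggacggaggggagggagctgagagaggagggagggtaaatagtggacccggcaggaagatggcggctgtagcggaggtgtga
Sgpp1, chr12:75735680-75735979, minus strand: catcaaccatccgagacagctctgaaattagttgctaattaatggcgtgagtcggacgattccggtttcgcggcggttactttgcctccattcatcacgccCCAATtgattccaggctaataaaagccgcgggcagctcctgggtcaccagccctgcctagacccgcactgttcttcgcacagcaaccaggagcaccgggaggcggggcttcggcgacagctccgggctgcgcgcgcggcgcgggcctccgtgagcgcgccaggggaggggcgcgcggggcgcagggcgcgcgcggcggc

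The windows were rich in G and C, at 81.3% in Ugcg, 75% in B4galt5, 68.3% in Col4a3bp and 66% in Sgpp1, against a median of 65.7% over the 31 members with a window and 52.7% over 32851 windows of all genes. B4galt5 held 7 GC boxes, Ugcg 2, Col4a3bp 1 and Sgpp1 0. A GC box was found in 22 of the 31 members and in 35.7% of all windows, and a CCAAT box in 10 of the 31 (Sgpp1 among these 4) and in 37.4% of all windows. The E box CACGTG occurred in 4 of the 31 members, and in 0 of these 4, against 7.15% of all windows. Each member entered with 1 window, the nearest to its deposited start. All windows include several for some genes and were not limited to genes expressed in islets, so the shares are not of like sets. The Asah2 window lies 41671 bases from the deposited start, and the Sgms1 window 1202 bases. No motif was shared by all 4, and a match of letters is not a bound site.

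Of the 3 genes of the glucosylceramide branch, Ugcg and B4galt5 had every KO library below both controls and Gba2 did not. Ugcg (chr4:59189257-59222833, plus strand), the glucosylceramide synthase that makes the lipid ABCA12 carries in skin, had 17.8, 19.4, 18.0, 18.0 and 19.8 RPM in KO 1 to KO 5, against 23.5 and 23.3 RPM in Control 1 and Control 2. Every KO library was below both controls, and the gap between the groups was wider than the spread inside either. The means were 18.6 ± 0.936 RPM in KO (SD, n = 5) and 23.4 ± 0.118 RPM in control islets (SD, n = 2), a log2 fold change of -0.32 (SE 0.08, adjusted p = 0.180 by limma).

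B4galt5 (chr2:167298444-167349183, minus strand), which adds galactose to glucosylceramide to give lactosylceramide, showed the same arrangement. It had 25.7, 25.7, 27.1, 27.3 and 26.0 RPM in KO 1 to KO 5, against 31.9 and 32.6 RPM in Control 1 and Control 2. The log2 fold change was -0.28 (SE 0.07, adjusted p = 0.170 by limma), the smallest adjusted p among the members. Gba2, the non-lysosomal enzyme that hydrolyses glucosylceramide, had 15.7 to 20.5 RPM in KO and 18.9 and 17.5 RPM in Control 1 and Control 2, with a log2 fold change of -0.05 and a 95% interval of -0.28 to 0.18. Its KO libraries spanned both controls.

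**Figure D3:**
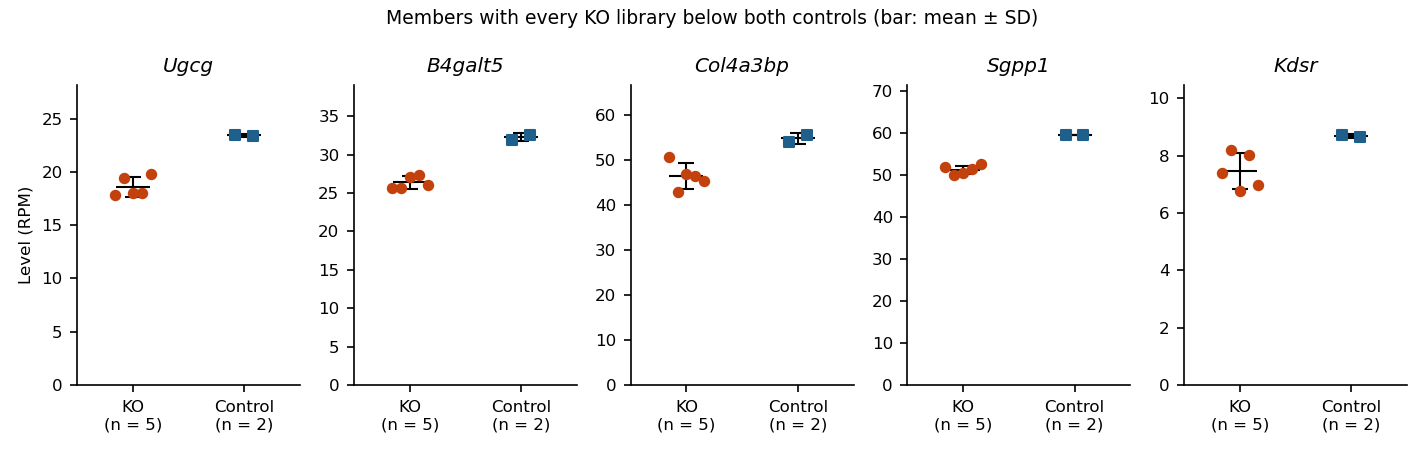
Level (RPM, axes from 0) of the 5 members with every KO library below both controls, with KO mice (circles, n = 5) left of control mice (squares, n = 2) and bars for the mean ± SD. Sgpp1 shows the tightest groups, at 49.99 to 52.5 RPM in KO against 59.5 and 59.6 RPM in the controls, and Kdsr the widest KO group relative to the gap.

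Ceramide reaches the Golgi by the transfer protein that Col4a3bp encodes, and this gene was also below both controls in each KO library. Col4a3bp (chr13:96542618-96640167, plus strand) had 50.6, 42.9, 46.8, 46.5 and 45.3 RPM in KO 1 to KO 5, against 54.0 and 55.7 RPM in Control 1 and Control 2. The log2 fold change was -0.24 (SE 0.07, adjusted p = 0.263 by limma). Col4a3bp overlaps an antisense gene, Gm48133, and 3 annotated transcripts on its own strand (Gm48138, Gm46436 and Gm48139), so its counts are uncertain, and the strand setting of the counting is not given in the sources used here. Ugcg, B4galt5, Sgpp1 and Kdsr overlap no other annotated gene.

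The sphingomyelin synthases that use this ceramide showed no such gap. Sgms2, the more abundant of the pair, had 72.7, 71.03, 65.3, 69.1 and 66.7 RPM in KO 1 to KO 5, and 78.8 and 60.3 RPM in Control 1 and Control 2. The KO libraries lay between the controls, and the log2 fold change was -0.00 with a 95% interval of -0.20 to 0.20. Sgms1, the Golgi enzyme, had 18.1 to 22.5 RPM in KO and 19.7 and 19.8 RPM in Control 1 and Control 2, with a log2 fold change of 0.04.

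Among the sphingosine phosphate enzymes, Sgpp1 (chr12:75714249-75735729, minus strand), a phosphatase that returns sphingosine phosphate to sphingosine, was lower in all KO libraries. It had 51.7, 49.99, 50.3, 51.3 and 52.5 RPM in KO 1 to KO 5, against 59.6 and 59.5 RPM in Control 1 and Control 2. Its coefficient of variation among the KO libraries, 1.99%, was the smallest of the members, and the log2 fold change was -0.22 (SE 0.06, adjusted p = 0.234 by limma). Sgpp2, a phosphatase gene of the same step from the related lists, had 16.2 to 20.8 RPM in KO and 18.2 and 14.7 RPM in Control 1 and Control 2. The groups overlapped for Sgpp2, with a log2 fold change of 0.19. Sgpl1, the lyase that breaks sphingosine phosphate down for good, had 61.9, 60.7, 58.7, 65.1 and 60.05 RPM in KO 1 to KO 5 and 62.03 and 64.9 RPM in Control 1 and Control 2. These overlapped, with a log2 fold change of -0.05.

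The sphingosine kinase genes differed in how much they varied. Sphk2 had 28.2 to 30.7 RPM in KO and 30.7 and 28.3 RPM in Control 1 and Control 2. Sphk1 had 3.26, 0.977, 0.683, 2.75 and 1.46 RPM in KO 1 to KO 5, and 0.920 and 2.38 RPM in Control 1 and Control 2. Its coefficient of variation among KO libraries, 61.6%, was the largest of the members, and the high and low libraries were found in both groups. The log2 fold change of Sphk1 was 0.06, with a 95% interval of -0.68 to 0.79.

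Among the tested genes of the first steps of ceramide synthesis, only the reductase gene Kdsr had KO libraries that did not overlap the controls. Sptlc1, the common subunit of serine palmitoyltransferase, had 26.6, 22.9, 25.4, 26.2 and 27.6 RPM in KO 1 to KO 5 and 27.3 and 25.6 RPM in Control 1 and Control 2. Sptlc2, the catalytic partner, had 30.8 to 34.7 RPM in KO and 32.5 and 32.2 RPM in Control 1 and Control 2. Both sets of libraries overlapped, with log2 fold changes of -0.04 for Sptlc1 and 0.04 for Sptlc2.

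Kdsr (chr1:106720459-106759727, minus strand), which reduces the first product of the pathway, had 7.39, 8.19, 6.76, 8.02 and 6.98 RPM in KO 1 to KO 5, against 8.74 and 8.65 RPM in Control 1 and Control 2. All KO libraries were below both controls, but the spread inside the KO group was wider than the gap to the controls. The log2 fold change was -0.20 (SE 0.12, adjusted p = 0.585 by limma). Kdsr was the 1 of the 5 members that did not reach an unadjusted p of 0.05.

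The 3 ORMDL genes, whose proteins restrain serine palmitoyltransferase, were slightly higher on average in KO without passing. Ormdl3 had 70.05, 67.2, 75.3, 76.2 and 76.2 RPM in KO 1 to KO 5 and 65.9 and 73.6 RPM in Control 1 and Control 2, a log2 fold change of 0.07 with a 95% interval of -0.10 to 0.23. Ormdl1 and Ormdl2 had log2 fold changes of 0.01 and 0.03. The groups overlapped in all 3. Ormdl1 overlaps Gm28778 on its own strand, so its counts are uncertain.

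The ceramide synthases set the length of the acyl chain, and the groups overlapped for each one tested. Cers2, which favours very long chains, had 51.3, 47.6, 50.7, 60.7 and 51.8 RPM in KO 1 to KO 5 and 48.8 and 52.1 RPM in Control 1 and Control 2. Cers6, which favours shorter chains, had 25.7 to 30.8 RPM in KO and 34.3 and 29.8 RPM in Control 1 and Control 2, a log2 fold change of -0.19 with a 95% interval of -0.38 to 0.01. KO 4 alone lay above Control 2 for Cers6. Cers4 and Cers5 had log2 fold changes of 0.25 and 0.11. Cers1 shares its locus and strand with Gdf1, so its counts are uncertain.

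Degs1, which introduces the double bond of ceramide, had 118, 122, 131, 128 and 145 RPM in KO 1 to KO 5 and 119 and 138 RPM in Control 1 and Control 2. The log2 fold change was 0.00 with a 95% interval of -0.19 to 0.20, and the KO libraries covered the whole range of the controls. Degs2, which can also hydroxylate the base, had 4.09 to 6.29 RPM in KO and 4.97 and 6.6 RPM in Control 1 and Control 2.

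The groups overlapped for every sphingomyelinase and ceramidase gene tested. Smpd1 had 68.9, 64.5, 66.8, 74.3 and 72.3 RPM in KO 1 to KO 5 and 67.6 and 73.9 RPM in Control 1 and Control 2. Asah1 had 99.8, 104, 90.2, 92.6 and 97.2 RPM in KO 1 to KO 5 and 94.9 and 100.5 RPM in Control 1 and Control 2. For both lysosomal enzymes the groups overlapped, with log2 fold changes of -0.03 for Smpd1 (95% interval -0.19 to 0.13) and -0.02 for Asah1 (95% interval -0.17 to 0.14).

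The neutral ceramidase gene Asah2 had 28.5 to 31.6 RPM in KO and 30.1 and 28.5 RPM in Control 1 and Control 2. The alkaline ceramidase genes Acer2 and Acer3 and the sphingomyelinase genes Smpd2 and Smpd4 had log2 fold changes between -0.06 and 0.04. Cerk, which phosphorylates ceramide, had 90.6, 89.6, 80.4, 93.9 and 87.5 RPM in KO 1 to KO 5 and 93.2 and 90.1 RPM in Control 1 and Control 2. Its log2 fold change was -0.05.

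Smpd3, the membrane-bound neutral sphingomyelinase, varied more than its relatives. It had 41.25, 18.1, 24.2, 33.8 and 28.8 RPM in KO 1 to KO 5, and 22.2 and 29.9 RPM in Control 1 and Control 2. KO 1 and KO 4 were highest and KO 2 and KO 3 lowest in the KO group, as for Sphk1, and KO 2 and KO 3 were the libraries with the highest acinar sums. The part of acinar content in this was not tested. Smpd3 overlaps Prmt7 on the other strand and Gm26786 on its own strand, so its counts are uncertain.

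The leading member of each enzyme family was the same gene in all 7 libraries. Per kilobase of exon, Cers2 made up 57.4 ± 1.68% of ceramide synthase transcripts in KO (SD, n = 5) and 56.9 ± 0.556% in control islets (SD, n = 2). Cers5 made up 27.3% and 25.9% in KO and control islets, and Cers6 12.8% and 15.01%, with 11.7 to 13.8% in KO libraries and 16.4% and 13.6% in Control 1 and Control 2. Ormdl3 held 75.7 ± 1.07% of ORMDL transcripts in KO and 75.2 ± 0.110% in control islets. Degs1 held 96.1% and 95.7% of desaturase transcripts in KO and control islets, and Asah1 89.3% and 89.5% of ceramidase transcripts.

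Sgms2 held 85.1 ± 0.497% of sphingomyelin synthase transcripts in KO and 85.4 ± 2.40% in control islets. Smpd1 held 61.9 to 70.3% of sphingomyelinase transcripts in KO and 69.9% and 68.4% in Control 1 and Control 2, and Smpd3 12.6 to 23.6% in KO and 14.6% and 17.6% in Control 1 and Control 2. Sphk1 was 2.07 to 8.58% of sphingosine kinase transcripts in KO and 2.54% and 6.84% in Control 1 and Control 2, with the rest from Sphk2. Shares depend on the length taken for each gene and on overlapping genes. Cers2 overlaps Setdb1, Sphk2 overlaps Dbp and Rpl18, and Degs2 overlaps Evl, all on the other strand. Cers6 overlaps several annotated transcripts on its own strand, so its counts are uncertain. Smpd3 and Ormdl1 also overlap an annotated gene on their own strand. The part of these neighbours and the difference in shares between the groups were not tested.

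**Figure D4:**
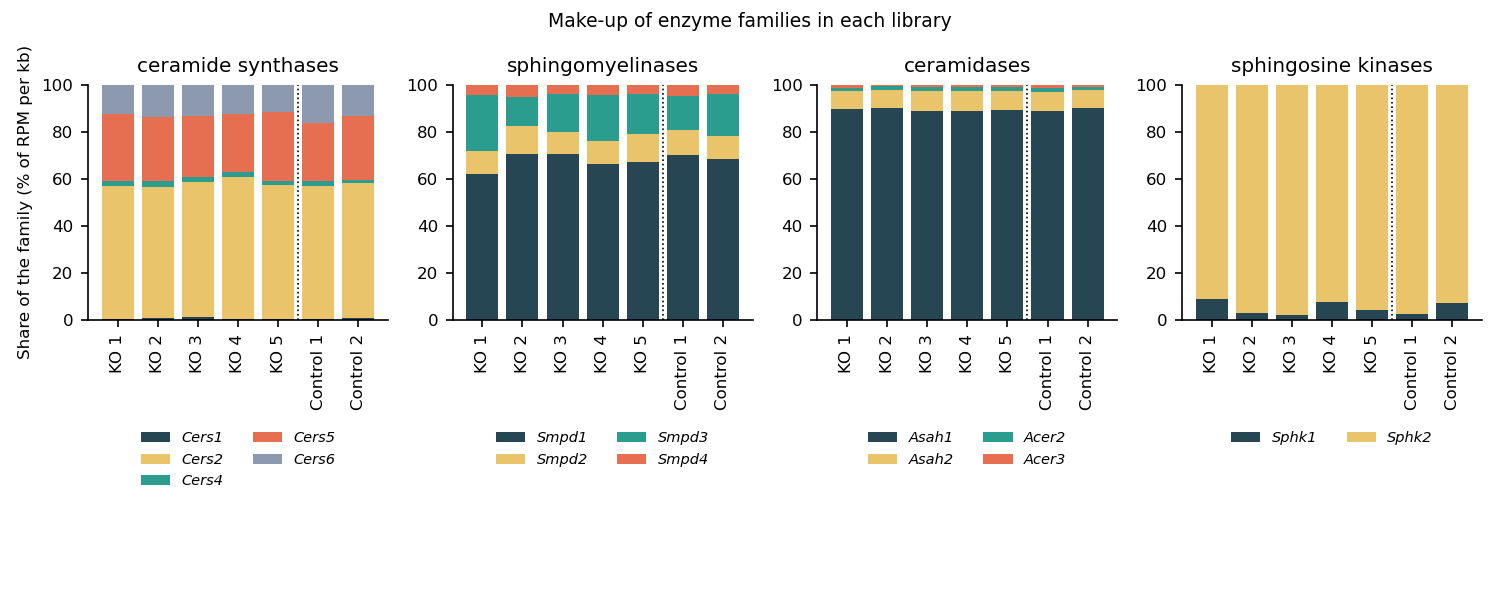
Share of each gene in 4 enzyme families, as percent of the summed RPM per kb of exon, in each library, with KO libraries left of the dotted line and controls right of it. Cers2, Smpd1, Asah1 and Sphk2 are the largest part of their family in all 7 libraries, and the Sphk1 part runs from 2.07 to 8.58% in KO islets.

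Genes around the pathway were taken from 3 further lists of 51 genes, of which 46 were tested. Of these 46, 0 passed at an adjusted p of 0.05, and at an unadjusted p under 0.05 there were 6 lower and 1 higher in KO. That is 15.2% of the related genes (13.04% lower), against 10.8% of all genes tested (6.16% lower and 4.64% higher). Their median log2 fold change was -0.07, against -0.01 for all genes tested.

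Among 21 glycosphingolipid enzymes, 15 were lower and 6 higher on average in KO, with a median of -0.09. Galc, the lysosomal enzyme that removes galactose from galactosylceramide, had 25.9, 25.1, 26.1, 26.1 and 27.5 RPM in KO 1 to KO 5, against 32.02 and 33.5 RPM in Control 1 and Control 2. All KO libraries were below both controls (log2 fold change -0.32, SE 0.07, adjusted p = 0.132 by limma), the smallest adjusted p of the related genes. Psap, the precursor of the saposins that assist lysosomal lipid hydrolases, averaged 527 ± 35.1 RPM in KO (SD, n = 5) and 594 ± 27.9 RPM in control islets (SD, n = 2), with an adjusted p of 0.498 by limma. The groups did not overlap by a bare margin, with KO 5 at 572.995 RPM and Control 1 at 573.884 RPM. The log2 fold change of Psap was -0.17, against -0.11 without KO 2 and KO 3. St8sia5, a ganglioside sialyltransferase gene, had 48.3 to 61.2 RPM in KO and 48.3 and 44.0 RPM in Control 1 and Control 2. Its lowest KO library lay barely above Control 1 (log2 fold change 0.23, adjusted p = 0.386 by limma).

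Of 16 tested genes of ceramide supply and transport, 11 were lower and 5 higher on average in KO, with a median of -0.02. Smpdl3a, a phosphodiesterase related to acid sphingomyelinase, had 13.2 to 16.3 RPM in KO and 16.7 and 19.0 RPM in Control 1 and Control 2 (log2 fold change -0.25, adjusted p = 0.433 by limma, -0.16 without Control 2 and -0.047 with an acinar score in the fit). Aldh3a2, the fatty aldehyde dehydrogenase that handles the end product of the lyase, had 42.4 to 50.3 RPM in KO and 48.8 and 55.4 RPM in Control 1 and Control 2. Its groups overlapped, since KO 5 was above Control 1 (log2 fold change -0.19, adjusted p = 0.445 by limma, -0.10 without Control 2 and -0.28 without Control 1).

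The 9 tested receptors and carriers of sphingosine phosphate had a median log2 fold change of -0.20, with 7 lower and 2 higher on average in KO. S1pr3, a receptor of vessel and stromal cells, had 1.03, 1.01, 1.87, 1.72 and 1.81 RPM in KO 1 to KO 5, against 2.01 and 5.94 RPM in Control 1 and Control 2. Its log2 fold change was -0.89 (SE 0.27, adjusted p = 0.245 by limma), -0.29 without Control 2 and -1.50 without Control 1. In the authors' deposited table of 136 selected genes S1pr3 had a log2 difference of -1.27 and a corrected p of 0.0412 (test not named). Their difference is of log2 RPM without the added 1, and the S1pr3 log2 fold change here was -1.21 with a pseudocount of 0.1 and -1.31 with voom. Of the 33 members, 0 were in that table. S1pr1, the main receptor of endothelium, had 7.28 to 9.65 RPM in KO and 9.66 and 14.01 RPM in Control 1 and Control 2 (log2 fold change -0.38, adjusted p = 0.376 by limma, -0.14 without Control 2 and -0.63 without Control 1). S1pr4, a leukocyte receptor, had 0.110 to 0.498 RPM in KO and 0.418 and 0.904 RPM in Control 1 and Control 2 (log2 fold change -0.44, adjusted p = 0.370 by limma, -0.23 without Control 2 and -0.65 without Control 1). S1pr4 had 3 to 13 reads in KO libraries, and its log2 fold change was -1.30 with a pseudocount of 0.1 and -1.74 with voom. Control 2 was also the library with the highest endothelial, stellate, macrophage and lymphocyte marker sums (169, 103, 70.0 and 16.8 RPM). Of the 6 macrophage markers, 3 were higher and 3 lower on average in KO. The part of those cells in the receptor values was not tested.

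**Figure D5:**
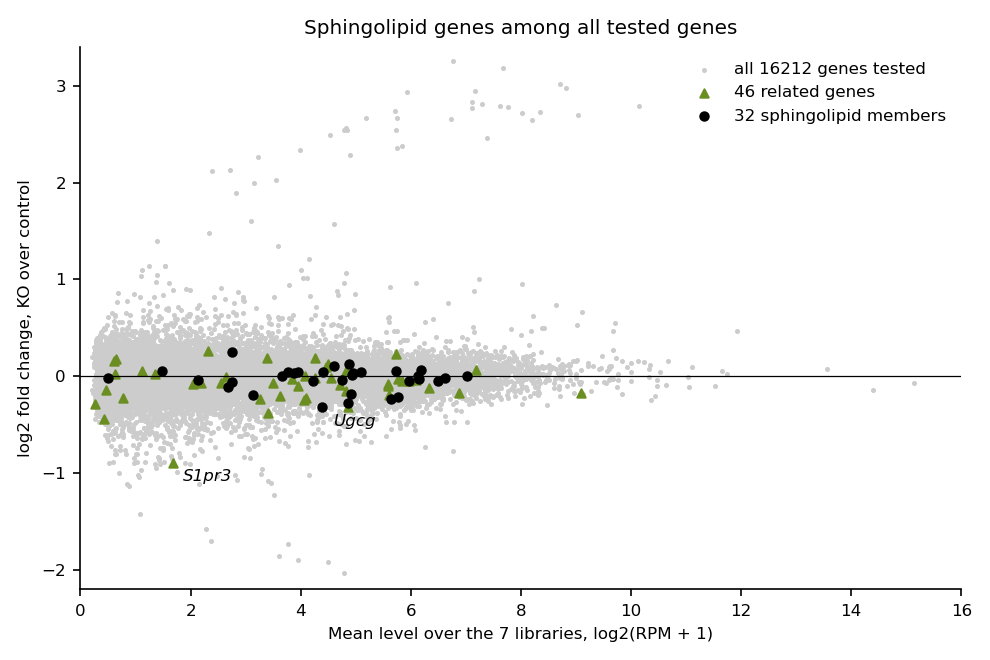
Log2 fold change of KO over control against the mean level over the 7 libraries, log2(RPM + 1), for all genes tested (grey), related genes (green triangles) and sphingolipid members (black). The members lie between -0.32 and 0.25, inside the cloud of all genes, and S1pr3 is at -0.89. On this scale S1pr3 is the lowest of the related genes, but with a pseudocount of 0.1 S1pr4 (-1.30) is below S1pr3 (-1.21).

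Without Control 2 the log2 fold change was -0.32 for Ugcg, -0.27 for B4galt5, -0.22 for Col4a3bp and -0.22 for Sgpp1. Without KO 2 and KO 3, the libraries with the highest acinar sums, it was -0.32 for Ugcg, -0.28 for B4galt5, -0.21 for Col4a3bp and -0.20 for Sgpp1. With an acinar score in the fit it was -0.16 for Col4a3bp and -0.17 for Sgpp1, the smallest sizes of all alternatives. Over all alternatives it lay between -0.34 and -0.30 for Ugcg and between -0.32 and -0.26 for B4galt5. In every KO library the endothelial sum was below both controls, and the acinar sum and the delta and PP sum were above both. The part of these cell types in the values of the 4 genes was not tested.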

How the data were processed

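PolyA-selected RNA of whole islets from 5 KO and 2 control mice was made into directional libraries, per the labels' protocols. HISAT2, DESeq2 and the build GRCm38 appear in the submitters' processing notes, without role or version, and neither the counting software nor its strand setting is named. The authors deposited a table of log2 values for 34245 genes. In each library, 2 to the power of a deposited log2 value was a whole multiple of 1 step (100% of values below 500 steps, within 0.02 of a step), so the values are log2 RPM, with genes of 0 reads stored at 0.9 of a step. Library sizes read from the step were 23922958 to 43117317 reads. The authors' table of 136 genes gives log2 group means, a ratio (fold, with control on top) and a corrected p-value from a test that its header does not name.

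Genes with 10 reads at the median depth (0.366 RPM) in at least 2 libraries were tested as log2(RPM + 1) with limma 3.58.1 in R 4.3.3, with an intensity trend and two-sided Benjamini-Hochberg adjustment over 16212 genes. The labels do not say whether mice shared litters, and p-values therefore reflect only how these 7 libraries vary. Exon lengths and overlaps came from GENCODE M21 (GRCm38), whose positions matched 32 of 33 members (not Asah2). The fit was tested on simulated data with planted changes larger than any member difference given here, so recovery of differences as small as those was not tested. Alternatives covered scaling, filters, pseudocounts, voom on recovered reads, robust fitting, sex, an acinar score, the replicate block and left-out libraries. Members and lists were chosen with earlier results of these data known. Genes with values in every library are Ugcg, members without overlap or with an unadjusted p under 0.05, and the member of each role with the highest level per kb. Smpd3 and Sphk1 were added after their values were seen. Of each related list, up to 4 genes are named by smallest p among those without overlap or with an unadjusted p under 0.05. Plots were drawn with matplotlib 3.10.9.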

Additional observations from a re-analysis of the deposited data

Results flagged for a closer look

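Among the 5 KO libraries, 2 of the 32 tested members had 1 library far from the others. Ormdl2 stood at 15.4 RPM in KO 5, above the other KO libraries at 13.2 to 13.6 RPM and above both controls (12.2 and 14.7 RPM). Cers1 stood at 0.736 RPM in KO 3, against 0.268 to 0.348 RPM in the other KO libraries and 0.293 and 0.542 RPM in Control 1 and Control 2. By chance about 1 in 20 such groups is marked. Ormdl2 overlaps Dnajc14 and Sarnp on the other strand, and Cers1 shares its strand with Gdf1, and the part of those neighbours in the counts was not tested.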

How the results depend on the processing

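No member passed at an adjusted p of 0.05 under any of the 20 alternatives. For Ugcg the log2 fold change lay between -0.34 and -0.30, -0.32 to -0.26 for B4galt5, -0.27 to -0.16 for Col4a3bp, -0.23 to -0.17 for Sgpp1 and -0.24 to -0.14 for Kdsr. Since these genes were picked for not overlapping, a kept direction is no sign of stability. The count of all genes passing, 10, was 20 with median-of-ratios scaling, 18 with quantile normalisation, 4 without a filter, 42 with robust fitting, 3 with sex, 0 with the acinar score and 47 without KO 2 and KO 3. With 1 library left out it ran from 2 to 127 (127 without Control 1, 2 without Control 2 or KO 4, 3 without KO 3). Fits without a control set 1 mouse against 5 and assume that the lone control varies like the KO group.
With 1 library left out, the members below every control ran from 5 to 8 and those above from 0 to 3, and the shares of all genes moved too. Without Control 2, 8 members (25%, against 23.7% of all genes) were below the remaining control and 3 (9.38%, against 16.8%) above. Without Control 1, 6 (18.8%, against 18.9%) were below and 3 (9.38%, against 20.9%) above. Above both controls there were 2 without KO 3 (6.25%, against 10.7%), 1 without KO 4 (3.12%, against 7.84%) and 3 without KO 2 and KO 3 (9.38%, against 14.8%). Related genes passing ran from 0 to 1 (S1pr3, adjusted p = 0.0144 by limma without Control 1; -1.50 without Control 1 and -0.29 without Control 2). The members' median was 0.060 with the acinar score, which was above both controls in each KO library, so the score and the genotype cannot be told apart.
Log2 fold changes near 0 turned sign. With reads in listed genes as scale Degs1 was -0.015. With quantile normalisation Degs1 was -0.029 and Sgms2 0.0022. Sgms2 was 0.0076 with median-of-ratios scaling, 0.0043 with voom and 0.010 without KO 2 and KO 3, where Sptlc1 was 0.017 and Smpd1 0.023. Smpd1 was 0.0080 with sex. With the acinar score Sptlc1 was 0.097, Smpd1 0.15, Cerk 0.047, Sgpl1 0.036 and Psap 0.026. With the replicate block Ormdl3 was -0.020, Cers2 -0.029, Degs1 -0.097, Sgms2 0.059 and Asah1 0.060. With 1 library left out the range was -0.085 to 0.0034 for Sptlc1, -0.013 to 0.14 for Ormdl3, -0.0032 to 0.10 for Cers2, -0.11 to 0.11 for Degs1, -0.19 to 0.19 for Sgms2, -0.091 to 0.034 for Smpd1 and -0.056 to 0.025 for Asah1. The cause was not tested.
Taking the longest transcript as length, mean KO shares were 72.7% for Ormdl3, 63.8% for Cers2, 95.4% for Degs1, 70.1% for Sgms2, 71.2% for Smpd1 and 86.2% for Asah1.
The titles number KO and control mice, and the main fit did not use the numbers as pairs. Deviations of same-numbered libraries from their group means had correlations of -0.10 for number 1 and -0.24 for number 2. With 2 controls, the deviations of Control 1 and Control 2 mirror each other, so these values cannot tell whether the numbers pair the mice. With the replicate block 11 genes passed, 0 of them members. At this depth a member at 0 reads could hold up to 0.125 RPM.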
